A study of Rattus norvegicus with 35 samples.

Results

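Carbonic anhydrases 2 and 3, the products of Car2 and Car3, are 2 of the 10411 genes that could be named on these arrays. Each is read by 2 probe sets, each a set of short oligonucleotides read together as 1 signal, so the description rests on 4 of 15866 probe sets. Both genes were chosen by their measured values in these tumours and glands. Their levels and their differences between the groups are therefore given as a description, with no test. The arrays, of the RAE230A design, measured total RNA from 24 rat mammary tumours and 11 normal mammary glands. The labels say that the tumours were induced with NMU (N-methyl-N-nitrosourea), a carcinogen that alkylates DNA, and had been frozen. They give no strain, age, animal or date, and do not say whether the animals that gave the normal glands had received the carcinogen. Of the glands, 8 carry the title NewN with a number, and the others are titled X27.1N, X28.1N and Young. Whether each sample is from an animal of its own is not stated, so the p-values below measure the spread between these samples, which may be technical in part.

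Carbonic anhydrases are zinc enzymes that interconvert carbon dioxide and water with bicarbonate and a proton. Carbonic anhydrase 2 is a fast cytosolic form found in red blood cells, osteoclasts, kidney and many secretory epithelia. Carbonic anhydrase 3 is a slow cytosolic form that is abundant in skeletal muscle, liver and, in rodents, fat cells. A rodent mammary gland is ducts and alveoli embedded in a fat pad that can lie against body wall muscle, so both fat and muscle are possible sources of Car3 RNA in a dissected gland. Car2 and Car3 are neighbours in the rat genome. In the RefSeq annotation of assembly GRCr8 the order runs Car2, Car3, Car1 and Car13, with 0 protein-coding genes between one and the next.

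Car3 RNA was far lower in tumours than in normal glands. Its probe set 1386977_at had signals from 87.7 in the tumour X32 to 1237 in the tumour X15, with a median of 130 over the 24 tumours. In the 11 normal glands it had signals from 2489 in X27.1N to 7368 in X28.1N, with a median of 5762. The groups did not overlap, and the highest tumour lay below the lowest gland. On the log2 scale the level averaged 7.22 ± 0.80 in tumours and 12.38 ± 0.43 in normal glands (SD, n = 24 and n = 11), a difference of -5.16, or 35.7-fold lower. Placing all tumours below all normal glands was seen in 2.02% of all 15866 probe sets, and this probe set ranked 10 among the falls.

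The tumour X15 stood apart from the other tumours. The second highest tumour, X25L, had a Car3 signal of 283, and all 24 tumours were above the floor of 41.6 below which signals were not told apart. Without X15 the log2 difference was -5.29.

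The other Car3 probe set, 1367896_at, gave the same picture with a wider spread in tumours. Its signal in tumours ran from 1.0, the lowest value deposited, to 3177 in X15, with a median of 110. In normal glands its signal ran from 4080 in X27.1N to 8116 in NewN5, with a median of 7580. All tumours again lay below all glands, but 8 of the 24 tumours were at or under the floor. The log2 difference was -5.82 (tumours 6.93 ± 1.69, normal glands 12.75 ± 0.32, SD), which ranked 4 among the falls. Because of the tumours at the floor this difference depends on where the floor is set, and it ran from -5.55 at a floor at the 20th percentile of signal to -6.00 at the 5th.

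**Figure D1:**
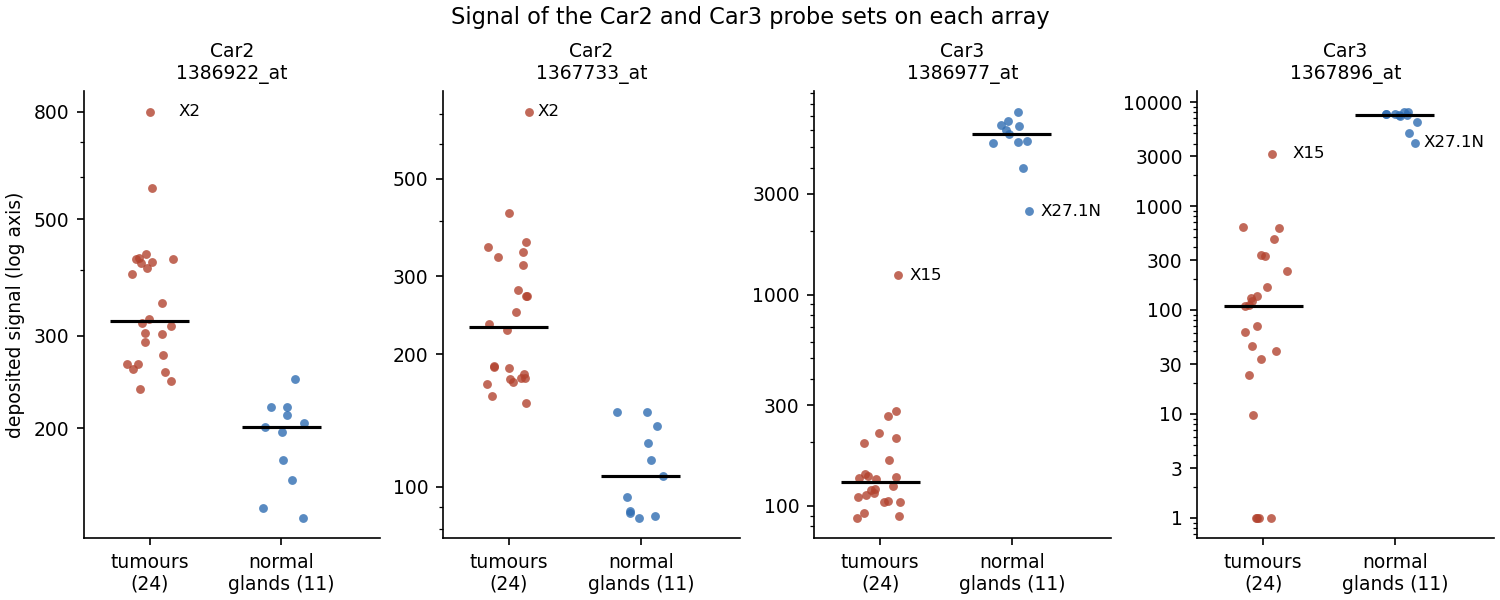
Deposited signal of the 4 probe sets on a log axis, 1 point for each array, with tumours (red, 24) left of normal glands (blue, 11) and the median as a bar. Both Car3 probe sets separate the groups, with X15 the highest tumour at 1237 and 3177, whereas the Car2 probe sets lie higher in tumours by a smaller margin and X2 is the highest tumour at 800 and 710.

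Car2 differed in the opposite direction and by much less. Its probe set 1386922_at had signals from 237 in X21 to 800 in X2 over the tumours, with a median of 320. In normal glands its signals ran from 135 in NewN1 to 249 in X28.1N, with a median of 201. Of the 24 tumours, 22 lay above every gland, and X21 (237) and X4 (246) fell just under the highest one. The level averaged 8.44 ± 0.42 in tumours and 7.56 ± 0.28 in normal glands on the log2 scale (SD), a difference of 0.87, or 1.83-fold higher, which ranked 383 among the rises.

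With the second Car2 probe set, 1367733_at, the groups did not overlap. Tumours had signals from 155 in X11 to 710 in X2, with a median of 230, and normal glands from 85.0 in NewN1 to 148 in NewN3, with a median of 106. The log2 difference was 1.16 (tumours 7.92 ± 0.55, normal glands 6.76 ± 0.32, SD), or 2.24-fold higher, and ranked 163 among the rises. All tumours above all normal glands was seen in 0.284% of all probe sets. X2 and X18 were the highest tumours for both probe sets, and without X2 the differences were 0.82 and 1.10. No tumour and no gland was at the floor for either Car2 probe set.

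The 2 probe sets of a gene ordered the tumours much alike for Car2 and less closely for Car3. Over the 24 tumours they had a Pearson correlation of 0.95 for Car2 (Spearman 0.88) and of 0.88 for Car3 (Spearman 0.75). Over the 11 normal glands the correlation was 0.94 for Car3 (Spearman 0.75) but 0.31 for Car2 (Spearman 0.25). X28.1N had the highest Car2 signal of the glands with 1386922_at (249) and one of the lowest with 1367733_at (85.9). Statements about Car2 among the glands therefore hold for 1 probe set at a time.

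**Figure D2:**
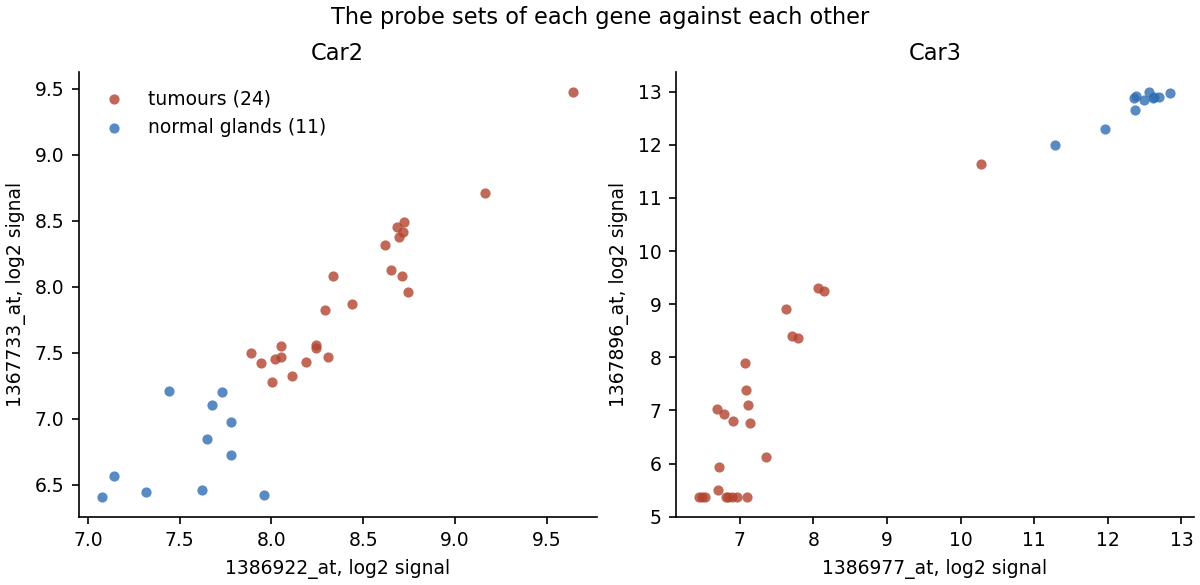
The log2 signal of the second probe set of Car2 (left) and Car3 (right) against that of the first, 1 point for each array (24 tumours in red, 11 normal glands in blue). The tumours run along a line for Car2 and less closely for Car3 (Spearman 0.88 and 0.75), and the Car2 points of the glands scatter (Pearson 0.31). The lowest row of Car3 points is the 8 tumours at the floor, which differ from each other with the first probe set.

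The 8 NewN glands and the 3 others overlapped for all 4 probe sets. With 1386922_at the Car2 signal was 135 to 220 in NewN glands and 212 to 249 in X27.1N, X28.1N and Young. With 1367733_at the ranges were 85.0 to 148 and 85.9 to 147 and coincided. The Car3 signal with 1386977_at was 3977 to 6627 in NewN glands, inside the range of 2489 to 7368 of the other glands. Set against the NewN glands alone, the tumours differed by 0.97 for Car2 and -5.24 for Car3 on the log2 scale (1386922_at and 1386977_at). Against the 3 other glands alone the differences were 0.61 and -4.95. With the second probe sets they were 1.17 and -5.86 against the NewN glands, and 1.14 and -5.69 against the 3 others.

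Title numbers 27 and 28 are each held by a tumour and by a normal gland, which the labels do not explain. For number 27 the Car3 signal was 119 in the tumour and 2489 in the gland, a log2 difference of -4.39. For number 28 it was 165 in the tumour and 7368 in the gland, a log2 difference of -5.48. The Car2 signal was 265 in tumour X27 and 212 in gland X27.1N, and 347 in tumour X28 and 249 in gland X28.1N. Both tumours lay on the same side of their gland as the groups as a whole. Some tumours share a number with each other. X25L and X25R had Car3 signals of 283 and 198, and Car2 signals of 393 and 303 with 1386922_at and of 319 and 188 with 1367733_at. X29.1 and X29.2 had Car3 signals of 141 and 120, and Car2 signals of 422 and 323 and of 359 and 271.

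Facts of the arrays that moved with the groups bear on all of these levels. The median signal of an array was 158 to 176 in tumours and 163 to 172 in normal glands. The 10th percentile was 43.6 ± 2.59 in tumours and 38.2 ± 2.66 in normal glands, and the 90th percentile was 596 ± 46.1 and 718 ± 38.6 (SD). The part of this in the Car2 and Car3 differences was not tested, though quantile normalization, which makes these percentiles equal, left them at 0.92 and -5.14. Luminal keratin Krt8 was bright on nearly all arrays, with a signal of 1033 to 4275 in 23 tumours and of 577 to 1512 in normal glands. The tumour X22L, at 75.7, was the exception. X22L had a Car2 signal of 403 and a Car3 signal of 135, both within the range of the other tumours.

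The cell types that could carry these RNAs also differed between the groups, by lists of marker genes. Of 21 measured fat cell genes, 21 were lower in tumours at a limma adjusted p under 0.05, against 27.5% of all 10411 genes called lower and 31.4% called higher. Their median log2 difference was -4.10, beside 0.02 for all genes. Of 29 skeletal muscle genes, 19 were lower and 1 was higher (median -0.52). Of 21 luminal epithelial genes, 12 were higher and 1 was lower (median 0.72). Of 15 basal and myoepithelial genes, 2 were higher and 5 lower. Of 9 red blood cell genes, 1 was higher and 2 were lower. In bulk tissue, fewer cells of a type and less RNA per cell cannot be told apart.

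The summed signal of the fat cell list was 1683 to 8539 in tumours, with X15 the highest, and 24071 to 61225 in normal glands, with X27.1N the lowest and X28.1N the highest. X15 was likewise the tumour highest in Car3, X27.1N the gland lowest in it and X28.1N the gland highest in it. The summed signal of the muscle list was 2810 to 4048 in tumours and 3237 to 32171 in normal glands, and the groups overlapped. The summed signal of the red blood cell list had a median of 3506 in tumours and 5721 in normal glands, the opposite direction to Car2. That sum was mostly Hbb, a beta globin, with a median of 2355 in tumours and 4129 in normal glands. Over the 9 genes of the list the median log2 difference was 0.02, as for all genes, and 6 were not called.

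Car3 was then set against each list within the groups, so that the difference between the groups could not enter. A list score is the mean of the list's genes after each was standardized over the arrays of the group. In all, 26 relations of Car2 and Car3 to 6 lists and to each other were computed, and p-values are two-sided permutation p-values adjusted over the 26. The relations to fat, muscle and epithelial genes were named when Car2 and Car3 were chosen, with results of these data known, so these p-values describe the relations and are no independent evidence for them.

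Among normal glands Car3 followed the fat cell score closely. Pearson's r was 0.94 (adjusted permutation p = 0.00026) and Spearman's rho 0.94 (adjusted permutation p = 0.00156) over 11 glands, with 1386977_at. The other probe set gave an r of 0.96. Leaving out the 2 glands farthest from the median score, X27.1N and NewN6, gave an r of 0.83, with an exact permutation p of 0.00525 that was 0.103 after adjustment and did not pass. Spearman's rho with the other probe set was 0.80 and did not pass either (adjusted permutation p = 0.0638). Among the 8 NewN glands alone r was 0.93 (adjusted exact permutation p = 0.0245). Each of the 21 fat cell genes correlated positively with Car3, with a median r of 0.89. Over all genes 48.8% had a positive r, and the median was -0.02.

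The glands lowest in the fat cell score were also the ones with many lymphocyte transcripts. NewN4, NewN6 and X27.1N had lymphocyte scores of 1.14 to 1.92 and fat cell scores of -1.86 to -0.66. The 8 other glands had lymphocyte scores of -0.65 to -0.27 and fat cell scores of 0.07 to 1.02. The Car3 signals of the first 3 were 5290, 3977 and 2489 with 1386977_at, and NewN3 (5246) and Young (5317) lay close to NewN4. With 1367896_at the same 3 glands were the lowest, at 6432, 5035 and 4080. Within the 8 other glands Car3 still followed the fat cell score, with an r of 0.94 (adjusted exact permutation p = 0.0155). Car3 had an r of -0.71 with the lymphocyte score over the 11 glands and of 0.44 over the tumours, and neither passed after adjustment over 4 relations of that list (permutation p = 0.0608 for each). The lymphocyte list was added after the data were seen.

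Among tumours Car3 also followed the fat cell score, but 1 tumour carried much of the relation. Over 24 tumours r was 0.88 (adjusted permutation p = 0.00104) and rho 0.56 (adjusted permutation p = 0.0436). With the other probe set r was 0.70 (adjusted permutation p = 0.00195) and rho 0.54, which did not pass (adjusted permutation p = 0.0697). Without X15 r was 0.64 (adjusted permutation p = 0.0153). Without X15 and X4, the tumours farthest from the median score, r was 0.55, with a permutation p of 0.00794 that was 0.103 after adjustment, so the relation no longer passed. The fat cell genes above the floor in at least 50% of the tumours numbered 14 of the 21 measured, and 14 of them correlated positively with Car3 (median r 0.47, beside 53.2% of all genes and a median of 0.01). Without X15, 12 of the 14 did, beside 50.7% of all genes, and the median r was 0.05. That median was then higher for muscle genes (0.19, 15 of 18 positive) and for lymphocyte genes (0.17, 10 of 10 positive). With X15 included, 10 of 10 lymphocyte genes were positive as well (median 0.37).

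X15 was the brightest tumour for fat cell genes as well as for Car3. Fabp4, the fatty acid binding protein of fat cells, had a signal of 929 in X15 and at most 212 in the other tumours, against 2291 to 6273 in normal glands. Cfd (adipsin, a serine protease secreted by fat cells) had a signal of 1754 in X15, a median of 65.9 over the tumours, and 3784 to 8730 in normal glands. Neither gene in X15 reached the lowest gland, and neither did Car3. Acta1, skeletal muscle actin, had a signal of 66.8 in X15, against a tumour median of 4.50, which is under the floor.

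**Figure D3:**
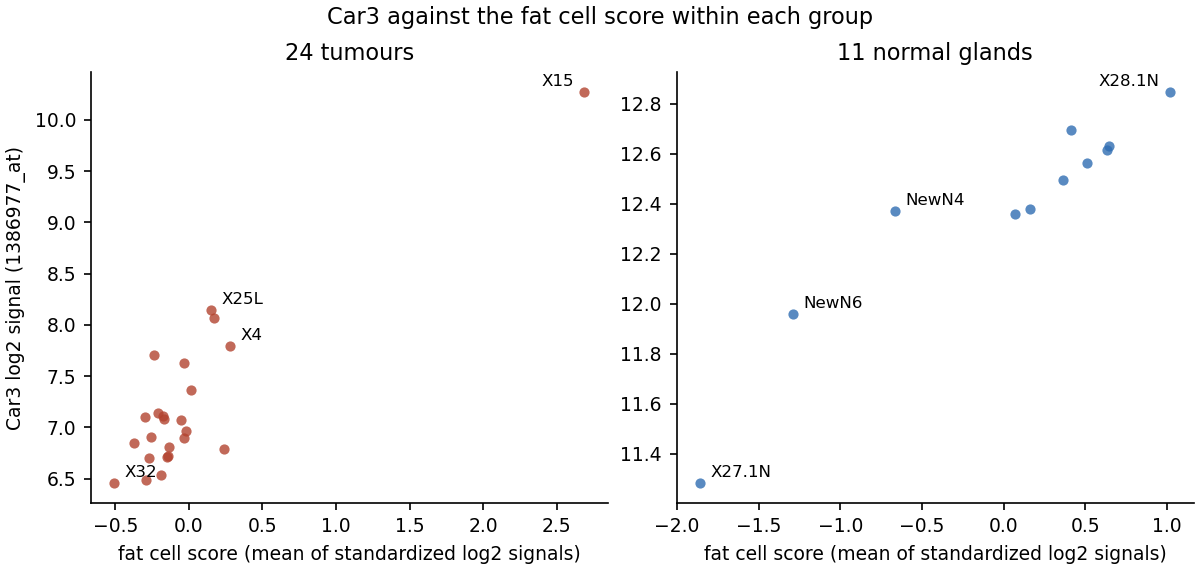
Car3 log2 signal (1386977_at) against the fat cell score, the mean of the list's standardized log2 signals, in 24 tumours (left) and 11 normal glands (right). Each panel has its own axes. The glands follow a rising line (r 0.94) with X27.1N, NewN6 and NewN4 lowest in the score, and in tumours X15 lies far from the other 23 points.

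Single fat cell genes varied in how closely they tracked Car3. Over the normal glands r was 0.92 for Cfd and 0.89 for Pck1 (phosphoenolpyruvate carboxykinase, which makes glyceroneogenic precursors in fat). It was 0.69 for Thrsp, a regulator of lipid synthesis with a signal of 55.6 to 2719 in tumours and 3630 to 6567 in normal glands. Over the tumours r was 0.82 for Cfd, 0.77 for Pck1 and 0.23 for Thrsp, and without X15 it was 0.66, 0.41 and 0.06. These values describe single genes and carry no test.

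Car3 did not track skeletal muscle genes beyond the error of these samples. Over tumours r with the muscle score was -0.00 (adjusted permutation p = 0.984), with rho 0.21. Without X15 r was 0.36 (adjusted permutation p = 0.47). Of 18 muscle genes above the floor in at least 50% of the tumours, 15 then had a positive r with Car3 (median 0.19), beside 50.7% of all genes. With X15 included it was 8 of 18 (median -0.02), beside 53.2% of all genes. Over normal glands r was 0.38 (adjusted permutation p = 0.779), with rho 0.17. A p that misses the threshold does not show that the relation is absent. In tumours the score itself is a limit. Of 29 muscle genes measured, 25 entered it and 18 were above the floor in at least 50% of the tumours. X4 had the highest score (1.14) with an Acta1 signal of 1.0. X17 and X25L, highest in Acta1 (310 and 118), had scores of -0.09 and 0.58. The r over tumours therefore cannot tell whether Car3 followed their muscle content.

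Single glands gave a mixed picture of Car3 beside the muscle gene Acta1. Acta1 ran from a signal of 32.2 to 4427 over the glands, a far wider range than that of Car3. X28.1N had the lowest Acta1 signal (32.2) and the highest Car3 signal (7368). NewN2 had the highest Acta1 signal (4427) and a Car3 signal of 6627, and NewN1 had an Acta1 signal of 169 and a Car3 signal of 6342. X27.1N and NewN6, low in Car3, had Acta1 signals of 93.7 and 47.5. In the 7 glands with an Acta1 signal above 500, r of Car3 with the muscle score was 0.57 (adjusted exact permutation p = 0.774), and without the lymphocyte-rich glands it was -0.13 (adjusted exact permutation p = 0.984). Within those 7 glands r with the fat cell score was 0.75 and did not pass (adjusted exact permutation p = 0.395). In the tumours Acta1 was at 1.0 to 118 in 23 and at 310 in X17, whose Car3 signal was 105, under the tumour median. The tumours next highest in Acta1 were X25L (118), X15 (66.8) and X11 (30.5, under the floor). Those were also the tumours highest in Car3, with signals of 283, 1237 and 268. Over the whole muscle list their scores were 0.58, -0.55 and -0.10, so only X25L was high in both Acta1 and the score.

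Most muscle genes nonetheless had a positive r with Car3 in the glands. Of the 25 muscle genes above the floor in at least 50% of the glands, 24 did, beside 48.8% of all genes. Their median r was 0.30, beside 0.89 for the fat cell genes and -0.02 for all genes. Myh1, a fast myosin heavy chain, had an r of 0.86 with Car3 over the glands and of 0.15 over the tumours, with signals of 708 to 1473 in tumours and 894 to 1624 in normal glands. Mb (myoglobin) had an r of 0.46 over the glands and of -0.33 over the tumours.

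Car3 showed no relation that passed with the epithelial lists. Its r with the luminal score was 0.01 in tumours (adjusted permutation p = 0.981) and 0.24 in normal glands (adjusted permutation p = 0.779). With the basal and myoepithelial score r was -0.02 in tumours and 0.23 in normal glands, and with the milk secretion score 0.11 and 0.17. Leaving out X28.1N and Young, the glands lowest in epithelial genes, moved r with the luminal score to 0.86 and with the basal score to 0.84 over 9 glands. Neither passed after adjustment (adjusted exact permutation p = 0.112 for each), and Spearman's rho was 0.33 and 0.40.

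Car2 was higher in tumours, as luminal genes were, but within the tumours it did not follow them. Its r with the luminal score was -0.16 over 24 tumours (adjusted permutation p = 0.779) and rho -0.23. Of 21 luminal genes, 2 correlated positively with Car2, with a median r of -0.14, beside 46.0% and -0.02 for all genes. Krt19, a luminal keratin, had an r of -0.15, Cd24 (a surface glycoprotein of luminal cells) of -0.08, Krt7 of -0.27 and Esr1 (oestrogen receptor alpha) of -0.36. X22L, with a luminal score of -3.46, had a Car2 signal above the tumour median of 320, and without it r was -0.12.

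Within the normal glands Car2 ran against the luminal score with 1 of its probe sets. With 1386922_at r was -0.69 (adjusted permutation p = 0.158) and rho -0.81 (adjusted permutation p = 0.0436) over 11 glands. With 1367733_at r was -0.02 (adjusted permutation p = 0.973). X28.1N and Young were lowest in the luminal score, and without them r with 1386922_at was -0.50 (adjusted exact permutation p = 0.597). The r with the basal and myoepithelial score was -0.63 with 1386922_at (adjusted permutation p = 0.231) and 0.01 with 1367733_at (adjusted permutation p = 0.973). Among the 8 NewN glands alone r of 1386922_at with the luminal score was -0.34 (adjusted exact permutation p = 0.789).

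**Figure D4:**
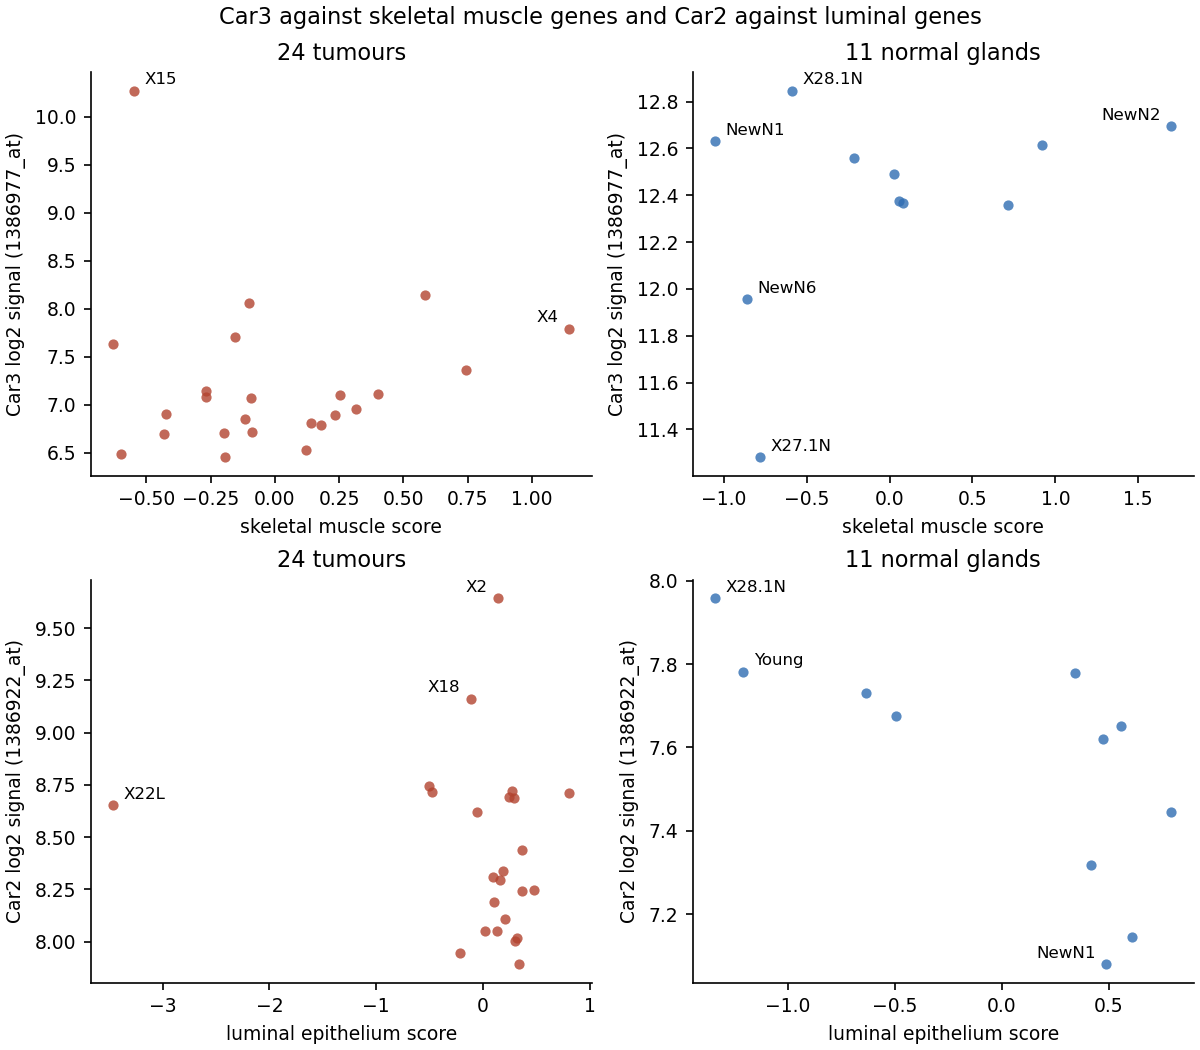
Top, Car3 log2 signal (1386977_at) against the skeletal muscle score, and bottom, Car2 log2 signal (1386922_at) against the luminal epithelium score, in 24 tumours (left, red) and 11 normal glands (right, blue), each panel with its own axes. Car3 is high in the glands at the ends of the muscle score (NewN1 and NewN2). It is lowest in X27.1N and NewN6, which lie next to NewN1 in that score. Car2 shows no slope in tumours (r -0.16), where X22L lies far to the left.

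Car2 and the fat cell score had an r of -0.27 in tumours (adjusted permutation p = 0.63) and of -0.26 in normal glands (adjusted permutation p = 0.779). With the second probe set the r was -0.80 in normal glands (adjusted permutation p = 0.0157) and -0.28 in tumours. Agpat2, an acyltransferase of triglyceride synthesis, had the largest r with Car2 among fat cell genes in tumours, -0.58. For the red blood cell score, the cells best known for carbonic anhydrase 2, r with Car2 was -0.29 in tumours (adjusted permutation p = 0.631) and 0.36 in normal glands (adjusted permutation p = 0.779). With the second probe set r was -0.44 in tumours (adjusted permutation p = 0.169) and -0.34 in normal glands (adjusted permutation p = 0.766), so the sign in the glands depended on the probe set. Hbb, a beta globin, had an r of -0.16 with Car2 over the tumours. The red blood cell score gives each list gene the same weight, so it is a limited measure of red cell content. Among tumours X4 had the highest score (1.09) but the lowest Hbb signal (341). X19, highest in Hbb (4944), had a score of 0.70. Car2 and Car3 had an r of -0.35 with each other in tumours (adjusted permutation p = 0.465) and of -0.22 in normal glands (adjusted permutation p = 0.779). With the second probe sets of both genes it was -0.23 in tumours (adjusted permutation p = 0.766) and -0.67 in normal glands (adjusted permutation p = 0.0842). For the milk secretion score r with Car2 was 0.17 in tumours and 0.12 in normal glands. The tumour highest in Car2, X2, also had the highest summed signal of the milk list, 43096, against a tumour median of 18707. By the milk secretion score X6 was highest (0.95, with X2 at 0.93), and X6 had a Car2 signal of 259, under the tumour median of 320.

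The genes whose pattern over the 24 tumours was most like that of Car3 were ranked by Pearson's r among 9815 genes above the floor in at least 50% of the tumours. In order they were Ccl17 (a T cell chemokine, r 0.83), Cfd (0.82), Pck1 (0.77), Meox2 (a homeobox transcription factor, 0.68), Itga7 (a laminin-binding integrin, 0.67), Tfpi2 (a serine protease inhibitor, 0.66), Aqp7 (the glycerol channel of fat cells, 0.66) and Scd (a fatty acid desaturase, 0.65). Cfd, Pck1 and Aqp7 are members of the fat cell list. Without X15 the r was 0.66 for Cfd, 0.57 for Itga7, 0.44 for Aqp7, 0.43 for Ccl17, 0.41 for Pck1, 0.35 for Tfpi2 and 0.09 for Scd, and Meox2 was above the floor in too few tumours to be ranked.

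The normal glands took no part in that ranking. Over the 11 glands the r with Car3 was 0.94 for Itga7, 0.92 for Cfd, 0.91 for Aqp7, 0.89 for Pck1 and 0.50 for Scd. It was 0.09 for Meox2, -0.26 for Tfpi2 and -0.78 for Ccl17, so the likeness of those 3 genes was not seen in the glands. The lowest r values over the tumours were those of Mybpc2 (a myosin binding protein of fast muscle, -0.69), Ppard (a nuclear receptor of lipid metabolism, -0.60), Mblac1 (-0.59) and Vps33b (a vesicle sorting protein, -0.59). Without X15 they were -0.12, 0.06, -0.17 and -0.50.

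The genes most like Car2 over the tumours had lower r values, and none of the 8 was among those of Car3. They were Cox7c (a subunit of cytochrome c oxidase, 0.63), Ift25 (intraflagellar transport, 0.62), Prl7a3 (a placental prolactin family gene, 0.61), Bhlha15 (a transcription factor of secretory cells, 0.61), Bcl2l15 (a Bcl2 family gene, 0.61), Clpx (a mitochondrial protease subunit, 0.60), Hyls1 (a centriole protein, 0.59) and Slc6a5 (a glycine transporter, 0.59). Without X2 the r was 0.53 for Cox7c and 0.54 for Bcl2l15, but 0.31 for Ift25, 0.30 for Prl7a3 and 0.24 for Clpx. Over the normal glands the r with Car2 was 0.56 for Bcl2l15, -0.24 for Cox7c and -0.66 for Bhlha15. The lowest over the tumours were Btg1 (an antiproliferative gene, -0.66), Klhl8 (-0.65), Cxcl14 (a chemokine, -0.63) and Zfp697 (-0.60).

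Of the other carbonic anhydrases, 10 of 14 listed were measured. The tumours were higher in 5 and lower in 1 at an adjusted p under 0.05, and 4 were not called, beside 31.4% and 27.5% of all genes called higher and lower. The median log2 difference was 0.18, and 0.02 for all genes. None of the 5 that rose did so by as much as Car2.

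Car5b, a carbonic anhydrase of mitochondria, was the member that fell. Its signal was 30.1 to 115 in tumours, with a median of 70.1, and 209 to 709 in normal glands, with a median of 419. The groups did not overlap. The log2 difference was -2.51 (SE 0.15, adjusted p = 1.16e-16), and its other probe set gave -1.91 (adjusted p = 3.34e-16). Its gland pattern differed in part from that of Car3: X27.1N, lowest in Car3, had a Car5b signal of 419, and Young had the highest, 709. NewN6, next lowest in Car3 after X27.1N, was the gland lowest in Car5b (209).

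Car1, a red blood cell and gut form, lies next to Car3 and was higher in tumours by 0.49 (SE 0.13, adjusted p = 0.00108), with mean signals of 118 ± 26.7 in tumours and 85.2 ± 26.7 in normal glands (SD). Car7, a cytosolic form known from brain, rose by 0.40 (SE 0.08, adjusted p = 6.06e-05), and 16 of 24 tumours lay above all glands. Car11 and Car10, related proteins without catalytic activity, rose by 0.39 (SE 0.08, adjusted p = 0.000101) and 0.29 (SE 0.09, adjusted p = 0.00509). Car14, a membrane form, rose by 0.34 (SE 0.10, adjusted p = 0.00242), and by 0.48 with its other probe set.

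Against X27.1N, X28.1N and Young alone, a fit on fewer glands, 6.85% of all genes were called higher and 11.1% lower. Of the 10 carbonic anhydrases 0 were called higher by limma, adjusted or at an unadjusted p under 0.05, and 1466 of 10411 genes passed in that direction at the unadjusted p. Car1 differed by -0.030. Car10 did not pass under quantile normalization (0.14) or a floor at the 20th percentile (0.03). Car5b was called lower against each set of glands.

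The 4 that were not called were Car4, a membrane form (log2 difference 0.02, adjusted p = 0.904), Car5a, the liver mitochondrial form (0.07, 0.379), Car6, a secreted form of saliva and milk (0.03, 0.386), and Car8, a related protein without catalytic activity (-0.12, 0.623). With a floor at the 5th percentile Car6 was called higher, by 0.32 (adjusted p = 0.00406). Car5a and Car6 were at the floor in all 11 glands and in 20 of 24 tumours each. Car8 had a signal of 392 in X2, the tumour highest in Car2, and of at most 130 in the other tumours, against 69.6 to 138 in normal glands.

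Carriers move the bicarbonate, protons and lactate that carbonic anhydrases act beside. Of 31 listed, 18 were measured. Of these, 11 were higher and 2 lower in tumours, beside 31.4% and 27.5% of all genes, and 5 were not called. Their median log2 difference was 0.23, and 0.02 for all genes. Against X27.1N, X28.1N and Young alone 3 were called higher and 1 lower, beside 6.85% and 11.1% of all genes.

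The monocarboxylate carriers held the largest differences in both directions. Slc16a3, the lactate exporter MCT4, had a signal of 155 to 648 in tumours and 80.4 to 173 in normal glands, and rose by 1.37 (SE 0.15, adjusted p = 2.22e-09). Slc16a1 (MCT1) had a signal of 60.1 to 275 in tumours and 233 to 624 in normal glands, and fell by 1.46 (SE 0.19, adjusted p = 1.09e-07). Against X27.1N, X28.1N and Young alone its difference was -0.94 and did not pass (adjusted p = 0.0589). Slc16a7 (MCT2) fell by 1.12 (SE 0.08, adjusted p = 1.39e-13), and 17 of 24 tumours were at the floor. With a floor at the 20th percentile its difference was -0.46.

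Among anion and proton exchangers, Slc26a1, which carries sulfate and oxalate, rose by 1.04 (SE 0.19, adjusted p = 1.74e-05), and 20 of 24 tumours lay above all glands. Slc26a4 (pendrin, which exchanges chloride for bicarbonate or iodide) rose by 0.64 (SE 0.08, adjusted p = 6.43e-08), with signals of 194 to 384 in tumours and 134 to 225 in normal glands. Slc9a4, a sodium and proton exchanger, rose by 0.46 (SE 0.09, adjusted p = 5.35e-05), with signals of 48.6 to 89.6 in tumours and 33.6 to 71.2 in normal glands. Against X27.1N, X28.1N and Young alone Slc26a1 (0.91, adjusted p = 0.0571) and Slc9a4 (0.18, adjusted p = 0.453) did not pass. With a floor at the 20th percentile Slc9a4 differed by 0.14.

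**Figure D5:**
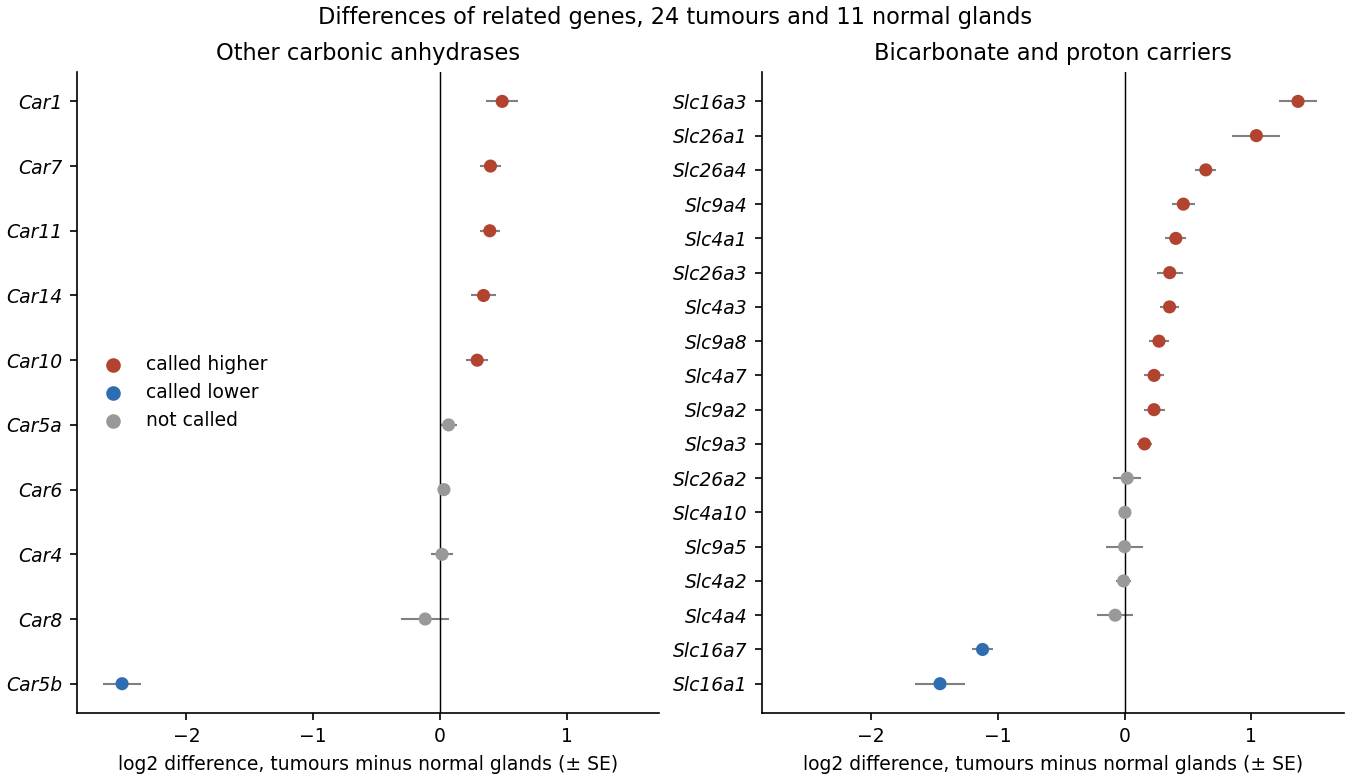
Log2 difference of signal, tumours minus normal glands, with its SE, for the 10 other carbonic anhydrases (left) and 18 carriers (right) measured, coloured by the call at a limma adjusted p under 0.05. Car5b at -2.51 lies apart from the other carbonic anhydrases, which run from -0.12 to 0.49, and Slc16a1 at -1.46 and Slc16a3 at 1.37 mark the ends of the carriers.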

How the data were processed

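For each of the 35 arrays the deposited table gives 15923 probe sets a linear intensity. How the authors obtained it (software, background, scaling) is not given in the sources used here. No value lay under 1, which 3601 values took. The 57 control probe sets were left out. Values under the 10th percentile of all others (41.6) were raised to that floor before taking log2, with no further scaling. Symbols came from the platform annotation (12783 probe sets with 1 symbol, 312 with several, 2771 with none). Of the Entrez identifiers, 12748 matched the RefSeq table of assembly GRCr8, and 0 symbols changed. A gene was read by its probe set with the highest mean log2 level.

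The comparison of groups used lmFit and eBayes (trend, robust) of limma 3.58.1 (R 4.3.3), with Benjamini-Hochberg adjustment over all 15866 probe sets and a call at an adjusted p under 0.05. Correlations used 100000 permutations, or all permutations for up to 9 arrays. Both procedures were tested on simulated data. Named genes were all Car2 and Car3 probe sets, all measured carbonic anhydrases, the 4 largest called rises and falls among the carriers, for Car2 and Car3 the 8 genes of highest and 4 of lowest correlation over tumours, and from each marker list those of highest level or correlation. Fabp4 and Krt8, given for single arrays, were chosen after their values were seen. The members, lists and tests were chosen with earlier results of these data known. Alternatives covered scaling, floor, dim probe sets, glands, tumours, probe sets and list scores. No sequence of Car2 or Car3 is printed.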

Additional observations from a re-analysis of the deposited data

How the results depend on the processing

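The Car2 and Car3 differences kept their direction under all alternatives run, and 43 of 44 moved by less than the spread between replicates. The exception was Car2 (1386922_at), which was 0.40 with title numbers 27 and 28 as a replicate block, a fit on 2 tumours and 2 glands. That fit called 0 genes of the carbonic anhydrases, the carriers or all genes in either direction. At an unadjusted limma p under 0.05, 1059 of 10411 genes were higher and 751 lower. Of the 10 carbonic anhydrases 0 were higher and 1 lower at that p, and of the 18 carriers 2 were higher and 1 lower. Against the 3 glands not titled NewN, fewer samples by construction, 713 genes were higher and 1155 lower, of the carbonic anhydrases 0 were higher, and of the carriers 3 were higher and 1 lower. Car1 (-0.030) and Slc9a2 (-0.16) then reversed. With the brighter 50% of the probe sets alone, 1 carbonic anhydrase was tested and 0 called in either direction. In that fit 8 carriers were tested with 6 higher and 1 lower, beside 1537 of 6006 genes higher and 2042 lower. Slc4a2, not called at -0.01, was called at 0.14 under quantile normalization, and was 0.23 against the 3 glands and 0.28 with the block, where it was not called. The cause of these 3 reversals was not tested.

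Of the relations, Car3 with the fat cell score was 0.55 in tumours and 0.83 in glands without the 2 farthest arrays, and 0.75 in 7 glands, and it no longer passed. Leaving out 1 array at a time it was 0.64 to 0.90 in tumours and 0.93 to 0.97 in glands and passed each time. Car2 with the fat cell score in glands was -0.80 with the other probe set, and passed. Of the 8 genes most like Car2, 2 were shared with a ranking by Spearman's rho, 5 under quantile normalization and 4 without X22L. Of those most like Car3, 2 were shared with a ranking by Spearman's rho. Signals near the floor limit Car5a, Car6, Car10, Slc16a7 and the second Car3 probe set in tumours.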
